A study of Solanum lycopersicum with 12 samples.

Results

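A group of 61 tomato genes was taken from 34075 gene IDs counted. Each was at least 2-fold lower in seedlings given the hormone abscisic acid (ABA) than in mock-treated seedlings. In seedlings given the compound iSB09 the change was small relative to that in ABA, with log2 ratios to mock from -0.66 to 0.26. The members were chosen from the values described here. A member had a mean of at least 1 CPM (the gene count scaled by the library total, in the usual unit of counts per 1000000) in ABA libraries and a log2 ratio of ABA to mock of -1 or less. Its highest ABA library lay below its lowest mock library, and its log2 ratio of iSB09 to mock was at most 0.25 of its log2 ratio of ABA to mock. Because the choice used all of the libraries, fold changes between groups are given below as a description. Of 580 genes that met the limits on ABA alone, 427 had a ratio of the 2 responses over 0.25 and under 0.75, and 92 had 0.75 or more.

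Whole wild-type seedlings of Solanum lycopersicum, moved into liquid medium at 3 days after germination and grown there for 8 days, received fresh medium for 3 h. The medium held 0.1% DMSO (mock), 10 µM ABA or 20 µM iSB09, each in 3 libraries from what the design text calls independent biological replicates. DMSO is recorded for the mock medium only, so solvent and treatment cannot be told apart, and the doses of the compounds differ. Seedlings given 10 µM iCB also belong to the series and were not analysed here.

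ABA is the hormone that plants accumulate when water runs short. It is bound by receptors of the PYR/PYL family, which then inhibit PP2C phosphatases. SnRK2 kinases are thereby released and activate bZIP transcription factors. Besides raising protective transcripts, ABA is known to lower many transcripts of growing tissue, and synthetic agonists act by occupying the hormone's pocket in receptors. The deposited table and the reference used here do not pair the IDs with names or sequences, and no IDs of this form occur in the RefSeq table at hand. Members are therefore given by ID with no role, and the tissue was not checked against marker genes. CPM values are not divided by transcript length and are not compared between genes.

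The libraries held 21863058 to 22098966 counts each. On principal components of log2 CPM over the 21424 genes that passed the count filter, iSB09 libraries lay between mock and ABA on the first (58.29% of the variance). On the second component (11.97%), iSB09 replicate 2 stood at 45.5 and the other iSB09 libraries at -4.31 and -5.04, and mock libraries ranged from -31.2 to 20.3. Counts of members by non-overlap, interval, call and span are also given without iSB09 replicate 2.

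All 61 members passed the count filter. Their log2 ratio of ABA to mock ran from -2.91 to -1.01, with a median of -1.32, against a median of -0.04 over all tested genes. In whole seedlings, fewer cells of a type and less RNA per cell cannot be told apart. Their log2 ratio of iSB09 to mock ran from -0.66 to 0.26, with a median of -0.20, and 8 members lay above 0. The median of the latter ratio was -0.33 without iSB09 replicate 1, -0.12 without replicate 2 and -0.13 without replicate 3. The other 519 genes lowered by ABA had medians of -1.42 for ABA and -0.80 for iSB09. Counts in single libraries went from 11 to 1256 in ABA, from 33 to 3090 in mock and from 17 to 2226 in iSB09.

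**Figure D1:**
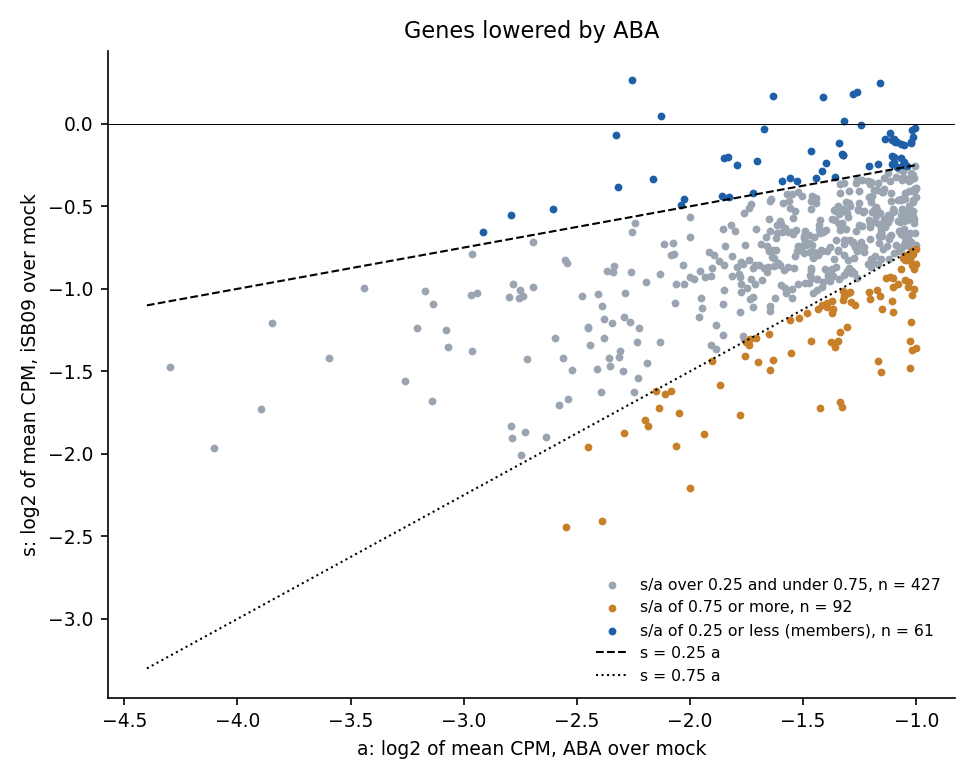
Each point is 1 of the 580 genes lowered by ABA, with the log2 ratio of mean CPM in ABA over mock on the x axis and in iSB09 over mock on the y axis. The 61 members (blue) lie on or above the dashed line at 0.25 of the ABA response, and the lowest member on the y axis is at -0.66.

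Members near the limits show where the choice was narrow. Solyc04g076970.3 was kept with a ratio of the responses of 0.248 and Solyc02g091700.3 with 0.244, while Solyc10g083860.3 (0.253) and Solyc06g005560.4 (0.257) fell outside. For ABA over mock, Solyc02g084790.3 was kept at -1.007 and Solyc10g083170.2 at -1.015, whereas Solyc06g006090.1 (-0.997) and Solyc10g083880.2 (-0.996) were not. For the level in ABA, Solyc02g091810.2 was kept at 1.02 CPM and Solyc05g007110.2 at 1.03 CPM, whereas Solyc01g095770.3 (0.913 CPM) and Solyc04g011810.1 (0.866 CPM) were not.

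The 6 members with the deepest ABA response differed in iSB09, where their log2 ratios to mock ran from -0.66 to 0.26. Solyc08g074980.4 had 35.1, 33.9 and 24.0 CPM in mock, 4.38, 3.81 and 4.16 CPM in ABA, and 23.6, 18.3 and 17.2 CPM in iSB09. Every iSB09 library lay below every mock library and above every ABA library, and the fitted log2 fold changes were -2.89 ± 0.19 (SE) for ABA and -0.66 ± 0.17 for iSB09. Solyc11g071580.2 was ordered the same way, with 14.2, 15.8 and 14.4 CPM in mock, 1.92, 2.68 and 1.83 CPM in ABA, and 10.9, 8.85 and 10.5 CPM in iSB09. Its fitted log2 fold changes were -2.76 ± 0.16 and -0.55 ± 0.14. These 2 were the only members called lower in iSB09 than in mock by edgeR's quasi-likelihood test (adjusted p under 0.05 over all genes), where 2.48% of all tested genes were called. That count fell to 0 when any 1 of mock replicates 1 and 2, of ABA replicates 1 and 3, or of iSB09 replicates 2 and 3 was left out. It was 1 without ABA replicate 2 and 4 without iSB09 replicate 1. In Solyc03g005480.4, mock libraries had 9.98, 10.6 and 6.92 CPM, ABA libraries 1.23, 1.73 and 1.56 CPM and iSB09 libraries 7.23, 6.39 and 5.56 CPM, so that iSB09 overlapped mock and not ABA. Solyc09g092470.2 had 5.92, 7.90 and 8.64 CPM in mock, 1.37, 1.18 and 1.92 CPM in ABA, and 12.8, 2.51 and 6.15 CPM in iSB09. Its iSB09 libraries lay on both sides of mock, and the 95% interval of iSB09 over mock was -0.9985 to 0.84. The other two of the 6, Solyc06g010010.3 and Solyc12g044950.3, also differed more than 2-fold between iSB09 libraries and are described with the members of wide span.

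Other members were alike in mock and iSB09 in each library. Solyc12g056920.3 had 32.9, 30.4 and 25.6 CPM in mock, 11.8, 10.2 and 13.3 CPM in ABA, and 26.6, 25.6 and 25.9 CPM in iSB09. The iSB09 values fell among the mock values and above every ABA value. The 95% interval of the fitted log2 fold change of iSB09 over mock was -0.47 to 0.10. Solyc06g059990.4 gave 15.7, 15.1 and 19.1 CPM in mock, 8.35, 6.35 and 8.37 CPM in ABA, and 16.2, 16.8 and 15.1 CPM in iSB09, with an interval of -0.34 to 0.25. Solyc10g009310.4 combined a deep ABA response with a flat iSB09 response. Its CPM values were 5.65, 7.53 and 6.97 in mock, 1.37, 1.73 and 1.51 in ABA, and 7.82, 5.93 and 7.11 in iSB09. The fitted log2 fold change was -2.10 ± 0.18 for ABA, and for iSB09 it was 0.05, with a 95% interval of -0.31 to 0.40. In Solyc09g008913.1, whose mean was higher in iSB09 than in mock, mock libraries had 17.0, 14.9 and 11.0 CPM, ABA libraries 5.43, 5.67 and 4.99 CPM, and iSB09 libraries 16.7, 16.3 and 14.9 CPM. The groups iSB09 and mock overlapped, with an interval of -0.20 to 0.52.

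Among the 8 members with a higher mean in iSB09 than in mock, edgeR called 0 higher (background 2.63%). The count was also 0 with DESeq2, with limma voom and at an unadjusted edgeR p under 0.05, and in 0 members did every iSB09 library lie above every mock library (background 10.3%). Intervals were wide for many members: the 95% interval of iSB09 over mock held 0 in 55 of 61 and reached down to -1, the same 2-fold decrease that defined the ABA response, in 10. Without iSB09 replicate 2 these counts were 52 and 7. The interval's median width was 1.09 log2 units. A member that was not called lower in iSB09 is therefore not shown to be unaffected by it.

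By edgeR, 55 of 61 members were called lower in ABA than in mock, where 9.9% of all tested genes were, and 37 were called higher in iSB09 than in ABA, where 1.76% were. The rule fixed both directions, and all members had ABA libraries below all mock libraries by choice (background 20.8%), so nothing is read from these counts. The former count was 37 without ABA replicate 2 and the latter 22, where 1288 and 181 of all tested genes were called. Without iSB09 replicate 2 the member counts were 56 and 40, beside 2361 and 406 over all tested genes. Every iSB09 library lay above every ABA library in 49 members (background 10.8%), and every iSB09 library lay below every mock library in 5 (background 10.7%). With iSB09 replicate 2 left out, these counts were 56 (background 25.9%) and 9 (background 13.1%).

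**Figure D2:**
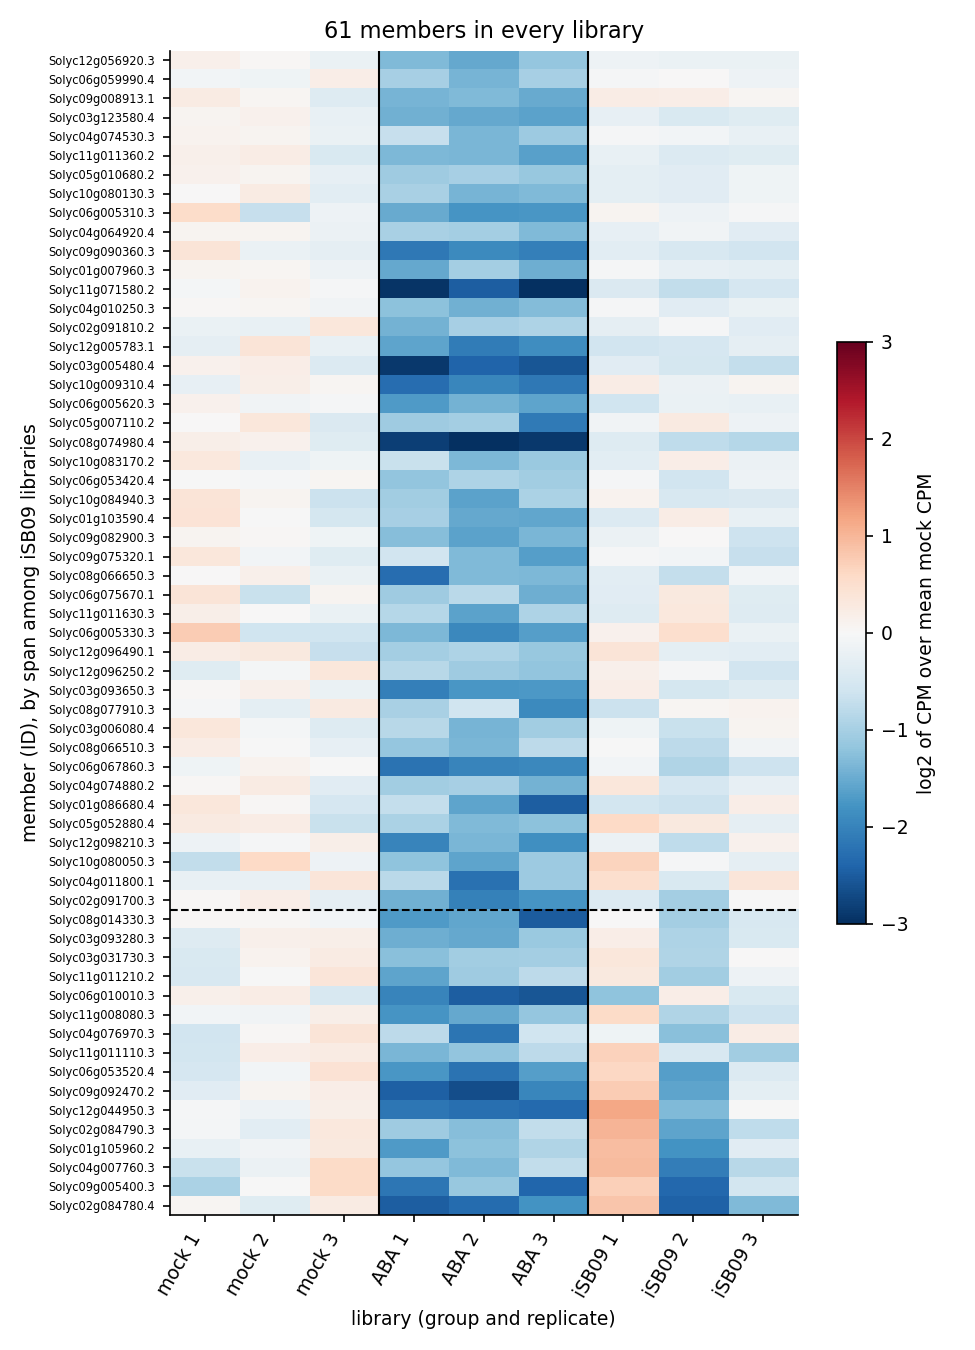
Rows are the 61 members, sorted by the ratio of their highest to their lowest iSB09 library, and columns are the 9 libraries; colour is log2 of CPM over the member's mean mock CPM. Below the dashed line are the 16 members whose iSB09 libraries differ at least 2-fold, most of them high in iSB09 replicate 1 and low in replicate 2.

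A mean close to mock went with a wide spread between iSB09 libraries in some members. In 16 members the highest iSB09 library was at least 2 times the lowest, up to 9.67 times in Solyc02g084780.4, while 5.93% of tested genes with at least 60 counts in the group and 20.5% of the other genes lowered by ABA did so. Such a span was not particular to the members: among genes lowered by ABA with a ratio of the responses of 0.75 or more, 26 of 90 had one (28.9%, against 26.2% of members). Among the 16, replicate 1 was highest in 14 and replicate 2 lowest in 14. In all 16 the exact 95% Poisson intervals of the highest and the lowest iSB09 library did not overlap. These intervals cover counting error only, and the choice of the 16 by span favours this outcome. Without iSB09 replicate 1 the count of members with such a span was 8, and without replicate 2 it was 10. Over fewer libraries a span can only be equal or smaller, and the background shares above are for 3 libraries. Of these 16 members 10 were called lower in ABA than in mock (background 9.9%) and 4 higher in iSB09 than in ABA (background 1.76%). Of the other 45 these counts were 45 and 33. Without iSB09 replicate 2 they were 12 and 12 of the 16, and 44 and 28 of the 45, beside 2361 and 406 over all tested genes. The rule fixed both directions, and a wide span raises the spread that the test estimates, so nothing is read from this difference. In mock and in ABA, 7 members each had such a span (11.5%), where 5.67% and 2.48% of tested genes did. Among the other genes lowered by ABA 6.94% and 9.63% did, and among those with a ratio of 0.75 or more 13.0% and 16.3% did.

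Solyc02g084780.4 had 26.2, 19.5 and 29.6 CPM in mock and 4.52, 5.04 and 7.23 CPM in ABA. In iSB09 it had 45.0 CPM in replicate 1, 4.65 CPM in replicate 2 and 10.1 CPM in replicate 3, so 1 library stood above all mock libraries and another within the ABA range. The fitted log2 fold change of iSB09 over mock, -0.35, had a 95% interval of -1.64 to 0.94. Its neighbour in ID order, Solyc02g084790.3, had 41.9, 6.85 and 12.1 CPM in iSB09 replicates 1 to 3, against 20.0, 16.5 and 25.5 CPM in mock and 9.90, 8.58 and 12.4 CPM in ABA. The order of the iSB09 libraries was the same in both. Reads could have been divided between such neighbours in ways the table cannot show if their sequences are alike, which was not tested.

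The same order appeared in members with other ABA responses. Solyc04g007760.3 had 59.0, 7.16 and 17.1 CPM in iSB09, against 19.1, 26.9 and 45.3 CPM in mock and 13.6, 12.1 and 18.2 CPM in ABA. The mock libraries of this gene also differed more than 2-fold, and iSB09 replicate 2 lay below all ABA libraries. Solyc12g044950.3, which had the highest mean log2 ratio of iSB09 to mock of all members, 0.26, had 29.8, 5.34 and 13.3 CPM in iSB09. Its mock libraries were at 13.1, 12.1 and 15.2 CPM and its ABA libraries at 2.97, 2.81 and 2.65 CPM, so the high mean came from replicate 1. Solyc09g005400.3 went from 12.2 CPM in iSB09 replicate 1 to 1.46 CPM in replicate 2, and Solyc01g105960.2 from 5.10 to 0.776 CPM. Solyc06g010010.3 was the reverse, with 2.73, 7.16 and 4.56 CPM in iSB09 replicates 1 to 3.

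**Figure D3:**
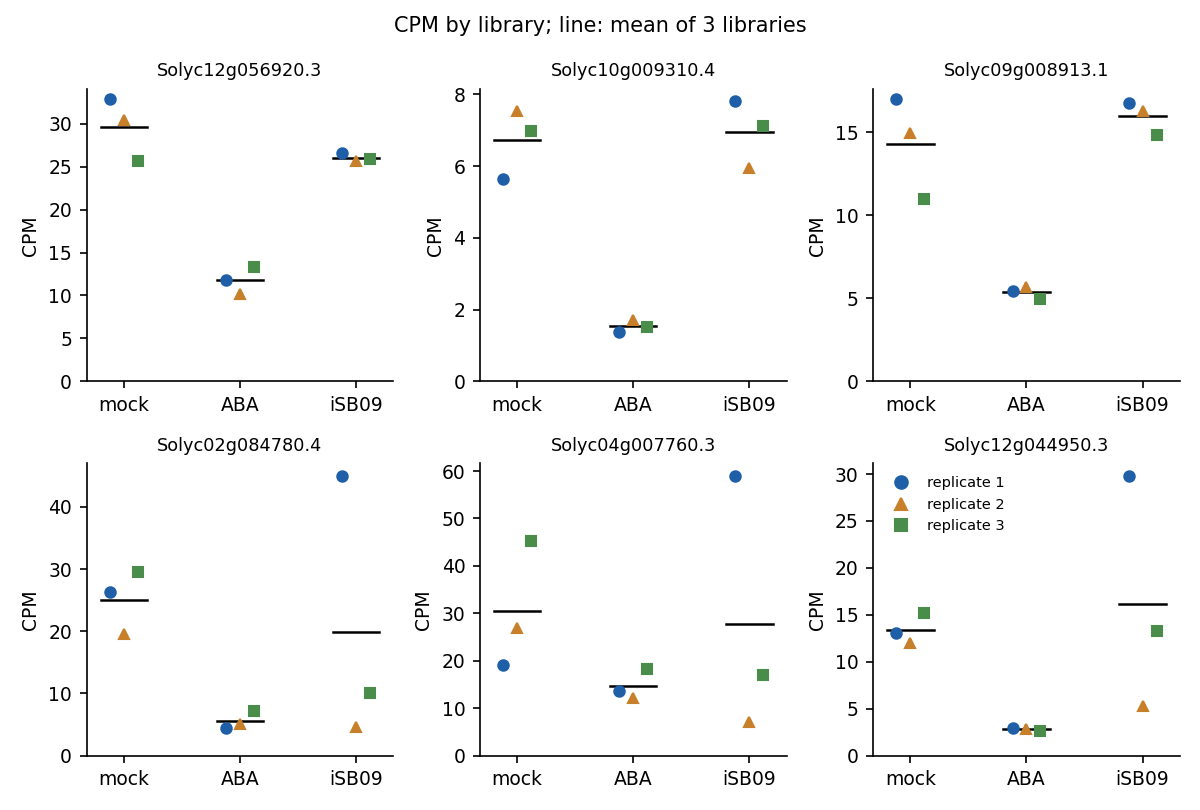
CPM in each library (symbols by replicate) and the mean of 3 libraries (line) for 6 members. In the upper row the iSB09 libraries lie together near mock; in the lower row they run from above mock (replicate 1) to 4.65, 7.16 and 5.34 CPM (replicate 2).

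On average the order of the iSB09 libraries was shared with the other genes lowered by ABA. On the log2(CPM + 0.5) scale the 61 members deviated from their group mean by 0.29 in iSB09 replicate 1, -0.25 in replicate 2 and -0.04 in replicate 3, on average. The other genes lowered by ABA averaged 0.22, -0.22 and 0.0007, close to the members, and all tested genes 0.04, -0.08 and 0.04. The 16 members of wide span averaged 0.84, -0.79 and -0.05, a size that their choice by span fixes in large part. Over all 61 members iSB09 replicate 1 was highest and replicate 2 lowest in 27, or 44.3%, beside 49.3% of the other genes lowered by ABA and 26.5% of tested genes. iSB09 replicate 2 is also the library that stood apart on the second principal component; its part in these values was not tested.

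Library by library, the iSB09 response stayed within the limit of 0.25 throughout in few members. Against mean mock, the response was at most 0.25 of the ABA response in 51 members in iSB09 replicate 1, in 25 in replicate 2 and in 39 in replicate 3. It was 0.75 or more in 0, 9 and 3 members. Only 11 members stayed at or under 0.25 in every iSB09 library, among them Solyc12g056920.3, Solyc06g059990.4, Solyc10g009310.4 and Solyc09g008913.1. This count was 31 without iSB09 replicate 2, 18 without iSB09 replicate 3 and 18 without mock replicate 2. In mock, the highest library was a median of 1.49 times the lowest over the members, and in iSB09 1.62 times. Single mock libraries were not set against the same limit, so how many would meet it was not tested. The counts by library therefore do not tell an iSB09 response from spread between replicates. All 11 were called lower in ABA than in mock (background 9.9%), and 10 were called higher in iSB09 than in ABA (background 1.76%). The choice of these 11 fixed both directions, so nothing is read from these counts.

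**Figure D4:**
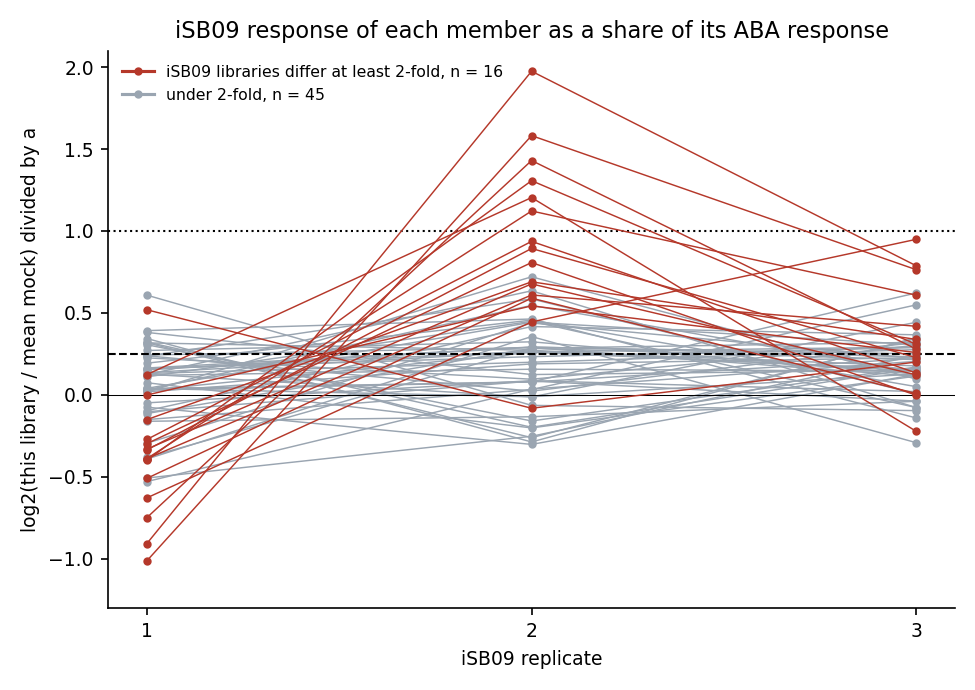
For each member, log2 of the CPM in 1 iSB09 library over mean mock, divided by its log2 ratio of ABA to mock (y axis, no unit), by iSB09 replicate (x axis); lines join the values of 1 gene. At 0 a library equals mock, at 1 (dotted) it equals the ABA mean, and 25 members lie at or under 0.25 (dashed) in replicate 2.

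Values the choice did not use came from leaving out the libraries of 1 replicate number, choosing genes by the same rule from the rest, and reading the left-out libraries alone. This gave 67, 94 and 68 genes with the libraries numbered 1, 2 and 3 left out, of which 30, 41 and 40 were among the 61. With 1 library a group there is no test, and left-out values are on the log2(CPM + 0.5) scale. The ABA response was present again: ABA was below mock in 62 of 67 genes (background 46.8%), 93 of 94 (50.4%) and 64 of 68 (63.6%), with median log2 differences of -1.01, -1.29 and -1.05.

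The iSB09 values moved away from mock in those libraries. In the libraries that chose the genes the median log2 ratio of iSB09 to mock was -0.15, -0.18 and -0.17; in the left-out libraries numbered 1, 2 and 3 it was -0.37, -0.84 and -0.26. For all genes lowered by ABA in the choosing libraries, the left-out medians were -0.37, -1.001 and -0.59. The response stayed at or under 0.25 of the ABA response in 23 of 67 genes (34.3%, background 19.1%), 14 of 94 (14.9%, background 12.3%) and 34 of 68 (50.0%, background 26.7%). Among all genes lowered by ABA these shares were 30.9%, 8.35% and 19.9%. For number 1 the share and the median of the chosen genes were thus near those of all genes lowered by ABA. For number 2 the share was above that of all genes lowered by ABA (14.9% against 8.35%), with medians of -0.84 and -1.001. It was near that of all tested genes. For number 3 the share was above both. A background gene was counted only with ABA below mock, as in 46.8%, 50.4% and 63.6% of tested genes for numbers 1 to 3. Among chosen genes ABA was below mock in 92.5%, 98.9% and 94.1%. Chosen and background shares are therefore not alike for any number, and nothing is read from their difference. Each comparison rests on 1 library a group, so whether a small iSB09 response is particular to the chosen genes was not tested. iSB09 was above ABA in 54 of 67 genes (background 51.1%), 78 of 94 (45.1%) and 63 of 68 (65.2%), by median log2 differences of 0.62, 0.54 and 0.76, against 0.61, 0.42 and 0.61 for all genes lowered by ABA. Over all genes lowered by ABA, 88.2%, 80.0% and 90.8% had iSB09 above ABA in the left-out libraries, beside 80.6%, 83.0% and 92.7% of the chosen genes.

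**Figure D5:**
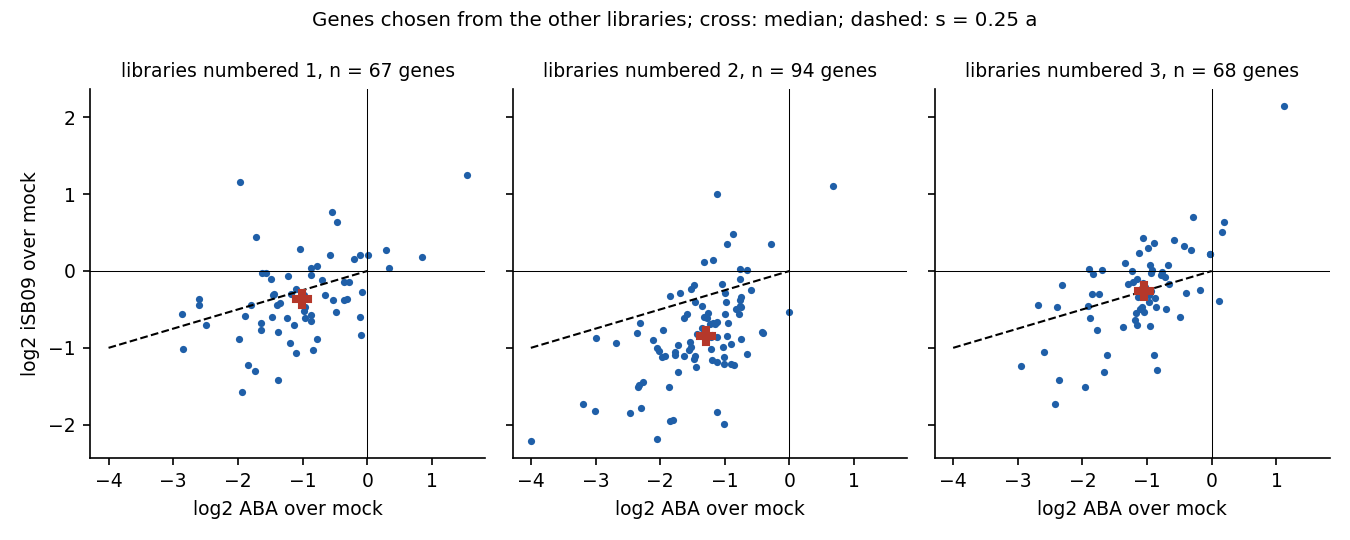
Genes chosen by the rule from the libraries of the other 2 replicate numbers, shown in the libraries the choice left out, with the log2 ratio of CPM + 0.5 in ABA over mock (x axis) and iSB09 over mock (y axis). The median (cross) lies at -0.37, -0.84 and -0.26 on the y axis, and 23, 14 and 34 genes are both below mock in ABA and on or above the dashed line.

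Of the 6 members with the highest mock levels, only Solyc08g014330.3 had a span of at least 2-fold in iSB09, at 32.57, 16.15 and 23.33 CPM. Solyc10g080130.3 had 113, 132 and 89.3 CPM in mock, 57.3, 42.7 and 44.6 CPM in ABA, and 91.0, 87.6 and 101 CPM in iSB09. Its iSB09 and mock libraries overlapped, and all ABA libraries lay below both. Solyc09g090360.3 had 141, 94.9 and 89.2 CPM in mock, 24.6, 29.0 and 26.2 CPM in ABA, and 86.5, 78.1 and 72.3 CPM in iSB09. Here every iSB09 library was below every mock library, with fitted log2 fold changes of -0.45 ± 0.17 for iSB09 and -1.995 ± 0.18 for ABA. In Solyc06g067860.3 iSB09 replicate 1 (44.5 CPM) lay in the range of mock (43.4, 50.9 and 47.0 CPM), while replicates 2 and 3 (25.2 and 30.6 CPM) lay between mock and ABA (10.1, 11.98 and 12.3 CPM). Solyc01g103590.4 had 41.3, 31.0 and 21.7 CPM in mock, 15.7, 10.8 and 10.7 CPM in ABA, and 23.6, 36.3 and 26.7 CPM in iSB09, with replicate 2 the highest of the iSB09 libraries. The lowest ratio of the 2 responses, -0.211, was that of Solyc05g052880.4, which had a low mock mean of 3.54 CPM. Its iSB09 libraries (5.32, 4.34 and 2.92 CPM) overlapped mock (4.28, 4.11 and 2.22 CPM) and lay above ABA (1.83, 1.41 and 1.51 CPM).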

How the data were processed

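The values are read counts per gene, deposited by the authors as 1 table of whole numbers. FastQC, STAR, cutadapt and DESeq2 are listed, without versions or roles, per the submitters' processing notes. The library kit was strand-specific, per the labels' protocols. Genome build, annotation, counter and strand setting: not given in the sources used here. Columns were matched to samples by name: 9 were used, and 3 that match no sample were not. Members were chosen on CPM by library totals. Members, lists and comparisons were chosen with earlier results of these data known. Differences were fitted over all 9 libraries with edgeR 4.0.16 in R 4.3.3 (filterByExpr, TMM, 1 coefficient per group, quasi-likelihood F test, Benjamini-Hochberg adjustment over 21424 genes, threshold 0.05), a procedure tested on simulated data. SE and intervals come from the F statistic. DESeq2 1.42.0 and limma 3.58.1 (voom) were alternatives. No 2 libraries of a group were alike within counting noise (chi-square over degrees of freedom from 7.465 to 28.48).

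The rule for genes named took the 6 members with the highest mock CPM, the 6 with the most negative ABA response, the 6 with the highest iSB09 response, the 4 with a ratio of responses nearest 0, the 4 with the smallest adjusted p for iSB09 against ABA, and genes at the limits. Solyc12g056920.3, Solyc06g059990.4, Solyc02g084780.4, Solyc04g007760.3 and Solyc09g005400.3 were named after their values were seen. Planned lists by gene description and promoter motifs could not be made without an annotation.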

Additional observations from a re-analysis of the deposited data

How the results depend on the processing

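The number of members was 94 with a log2 limit for ABA of -0.8, 37 with -1.2 and 32 with at least 2 CPM in ABA. With libraries left out it ran from 48 to 99, the latter without iSB09 replicate 2, with 53 of the 61 among them, and was 94 without replicate 2 of every group, with 41. With TMM-scaled CPM it was 55 (54 shared). Members at or under 0.25 in every iSB09 library numbered 10 to 31 and members with a 2-fold span 8 to 16 with libraries left out. Leaving out an iSB09 library cannot lower the former count or raise the latter. The 2 members called lower in iSB09 than in mock became 1 with library totals, 1 with limma voom, 0 with median-of-ratios factors, 0 with only the 6 libraries compared and 1 with a replicate block, and 0 to 4 with libraries left out. Members higher in iSB09 than in ABA numbered 22 to 40 with libraries left out and 44 with DESeq2. The counts by non-overlap, interval and span without iSB09 replicate 2, and the other counts by library span, were chosen after seeing the data. The median responses kept their sign under every alternative run. The rule chose the members on these values and in large part set those signs, so nothing is read from that.

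Over all genes, those lower in ABA than in mock numbered 1288 to 2361 with libraries left out, and those lower in iSB09 than in mock 245 to 651, or 319 with only the 6 libraries compared. Genes higher in iSB09 than in ABA numbered 181 to 406 with libraries left out and 533 with DESeq2, and genes lower 517 to 906 with libraries left out, 1097 with DESeq2 and 928 with only the 6 libraries compared. The cause of these shifts was not tested. Deviations of same-numbered libraries from their group means correlated at -0.185 to 0.341, the highest between mock and iSB09 replicate 3. These values do not settle whether the numbers pair the samples. With the replicate block 53 members were lower in ABA than in mock and 37 higher in iSB09 than in ABA. Over all tested genes these counts were 1940 and 348. At about 22 counts per CPM, members near 1 CPM in ABA rest on few counts.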

Other observations

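By the chromosome number in the ID, 9 members lie on chromosome 6 (of 1890 tested genes there), 7 on chromosome 4 (of 1820) and 0 on chromosome 7 (of 1601). Solyc06g005310.3 and Solyc06g005330.3, with 1 ID between them, were both highest in mock replicate 1, at 7.29 and 9.98 CPM against 3.06 to 4.48 CPM in the other mock libraries of the pair, and both had iSB09 libraries above every ABA library. Solyc04g011800.1, a member, and Solyc04g011810.1, which missed the limit on level, had log2 ratios of iSB09 to mock of 0.19 and 0.18. These neighbours were noticed after their values were seen.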
